A study of Mus musculus with 5 samples.

Results

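The replication and mitosis genes described here are 43 genes of the proliferating cell, 21 that act in S phase (Mcm2 to Mcm7, Mcm10, Pcna and the others through Cdt1) and 22 that act in G2 and M phase (Mki67, Top2a, Cdk1 and the others through Ttk). They were taken by symbol from a fixed list, which was chosen with earlier results of these data known. For each gene the RefSeq transcript with the most counts was kept. All 43 were found among the 24399 genes of the table, and all 43 passed the filter on low counts, as did 14565 genes in all. Messenger RNA came from LSK cells, the lineage-negative, Sca1-positive, cKit-positive bone marrow fraction containing blood stem cells and early multipotent progenitors, sorted from C57BL/6 mice aged 12 months. Of the 5 libraries, 3 carry KO in their titles and 2 carry WT. The genotype field gives the KO-titled animals as heterozygous for a germline knockout allele and the WT animals as wild type, and the study's design also names homozygous animals. The transcript of the targeted gene had 0, 1 and 0 counts in KO libraries 1 to 3, against 223 and 336 counts in WT libraries 1 and 2. Those counts separate the titles, but near-absence of the transcript goes against the heterozygous field, and the conflict between the labels was not resolved. The libraries are therefore called KO-labelled, and whether a value below describes heterozygous or homozygous animals is not known. The labels do not say whether each library came from a separate animal, so a p-value here reflects only how far these libraries vary, and that variation may be technical.

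Cells commit to division in G1, copy their DNA in S phase and separate the copies in mitosis. The Mcm2 to Mcm7 helicase is loaded at origins by Cdc6 and Cdt1 before S phase begins. In S phase the helicase is switched on with Cdc45 and the GINS complex, and followed by primase, polymerases and the sliding clamp Pcna. In G2 and M phase cyclin B with Cdk1, the Aurora and Polo kinases, kinesins and the spindle checkpoint drive chromosome segregation. In adult bone marrow most stem cells are quiescent, while the multipotent progenitors in the LSK gate divide more often.

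S phase genes are classically driven by E2F factors, and G2 and M phase genes by the MuvB complex, which binds the CHR element, together with NF-Y, which binds the CCAAT box. The promoters of the members were therefore searched, on both strands, for 2 E2F core spellings (TTCCCGC, and as the other spelling TTGGCGC), 2 CHR forms (TTTGAA, and as the other form TTCGAA) and the CCAAT box. The TTCGAA form reads the same on both strands, and a TTGGCGC match can share bases with a CCAAT box on the opposite strand. RefSeq promoter windows of GRCm38.p6, 250 bases before to 50 bases after the start, matched 35 of the 43 members, 17 S phase and 18 G2 and M phase genes with 19 and 18 windows. A CHR form was present in 14 of the 18 G2 and M phase windows (77.8%) and in 4 of the 19 S phase windows (21.1%), against 19.2% of all 32851 windows and 14.3% of the windows of tested genes. All 14 of those G2 and M phase windows also held a CCAAT box, a combination found in 3 of 19 S phase windows and 7.52% of all windows. E2F letters went the other way, with 10 of 19 S phase windows (52.6%), 3 of 18 G2 and M phase windows (16.7%), 6.81% of all windows and 11.4% of the windows of tested genes. The CCAAT box alone was in 13 of 19 S phase and 16 of 18 G2 and M phase windows, against 37.4% of all windows. A match is a description of these letters only, and a window without one says nothing about the factor.

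The 200 bases before the start are printed for 3 G2 and M phase genes and 3 S phase genes, because they show how the pattern of letters differs between the 2 sets and include Mki67 and Mcm10, the members that passed the test below. Capitals mark the searched letters on either strand.
Mki67, chr7:135716380-135716579, minus strand: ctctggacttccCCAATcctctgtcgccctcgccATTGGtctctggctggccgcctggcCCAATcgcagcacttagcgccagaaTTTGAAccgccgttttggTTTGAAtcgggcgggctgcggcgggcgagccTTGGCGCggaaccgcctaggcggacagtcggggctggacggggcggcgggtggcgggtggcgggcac
Top2a, chr11:99024190-99024389, minus strand: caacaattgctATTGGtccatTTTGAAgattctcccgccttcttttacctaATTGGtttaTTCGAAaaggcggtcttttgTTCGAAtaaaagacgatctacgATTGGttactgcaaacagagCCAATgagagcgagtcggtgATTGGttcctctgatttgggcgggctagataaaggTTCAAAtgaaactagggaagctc
Hmmr, chr11:40733438-40733637, minus strand: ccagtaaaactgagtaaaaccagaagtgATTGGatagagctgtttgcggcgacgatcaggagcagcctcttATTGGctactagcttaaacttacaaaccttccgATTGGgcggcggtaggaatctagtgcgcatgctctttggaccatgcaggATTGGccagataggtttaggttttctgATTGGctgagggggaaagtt
Mcm10, chr2:5012792-5012991, minus strand: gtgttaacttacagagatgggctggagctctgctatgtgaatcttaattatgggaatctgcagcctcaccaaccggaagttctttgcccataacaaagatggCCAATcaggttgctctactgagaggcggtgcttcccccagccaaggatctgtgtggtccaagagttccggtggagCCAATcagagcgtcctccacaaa
Mcm6, chr1:128359706-128359905, minus strand: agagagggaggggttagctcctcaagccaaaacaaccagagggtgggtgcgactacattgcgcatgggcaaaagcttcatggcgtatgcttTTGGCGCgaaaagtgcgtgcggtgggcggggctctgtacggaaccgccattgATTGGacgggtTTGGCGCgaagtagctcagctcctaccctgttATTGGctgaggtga
Mcm5, chr8:75109309-75109508, plus strand: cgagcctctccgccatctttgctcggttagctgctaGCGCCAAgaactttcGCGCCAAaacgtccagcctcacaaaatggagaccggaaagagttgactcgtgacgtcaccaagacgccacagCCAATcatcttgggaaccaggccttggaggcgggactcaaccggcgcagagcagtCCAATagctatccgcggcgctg
The Mki67 stretch carries 2 CHR forms and 3 CCAAT boxes upstream of 1 E2F match, and that of Top2a carries CHR forms of both spellings among its CCAAT boxes. Hmmr shows 5 CCAAT boxes in reverse orientation, and its CHR form lies 9 to 14 bases after the start, outside the printed stretch. Mcm6 and Mcm5 carry 2 E2F matches each and no CHR form, while Mcm10 carries CCAAT boxes and neither E2F nor CHR letters in its window.

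In the KO-labelled libraries both gene sets stood slightly higher than in WT, the mitotic set more than the S phase set. The changes were small, with fitted log2 fold changes from -0.11 to 0.59, and only Mcm10 and Mki67 passed the test over all genes, while no member passed in the lower direction. In edgeR's quasi-likelihood test with Benjamini-Hochberg adjustment, at a threshold of 0.05, 1 of 21 S phase genes and 1 of 22 G2 and M phase genes rose. Over all genes 1.97% passed, 0.79% as higher and 1.18% as lower. At an unadjusted p under 0.05, 6 S phase and 12 G2 and M phase genes were higher and 0 lower, against 6.76% higher and 7.02% lower over all genes. The median log2 fold change was 0.13 in the S phase set and 0.25 in the G2 and M phase set, beside 0.001 over all genes tested. Fitted values were above 0 in 19 of 21 S phase and 22 of 22 G2 and M phase genes, against 50.1% of all genes. Members rise and fall together in a library, so these counts are not independent measurements, and in bulk RNA more cycling cells and more of these transcripts per cell cannot be told apart.

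**Figure D1:**
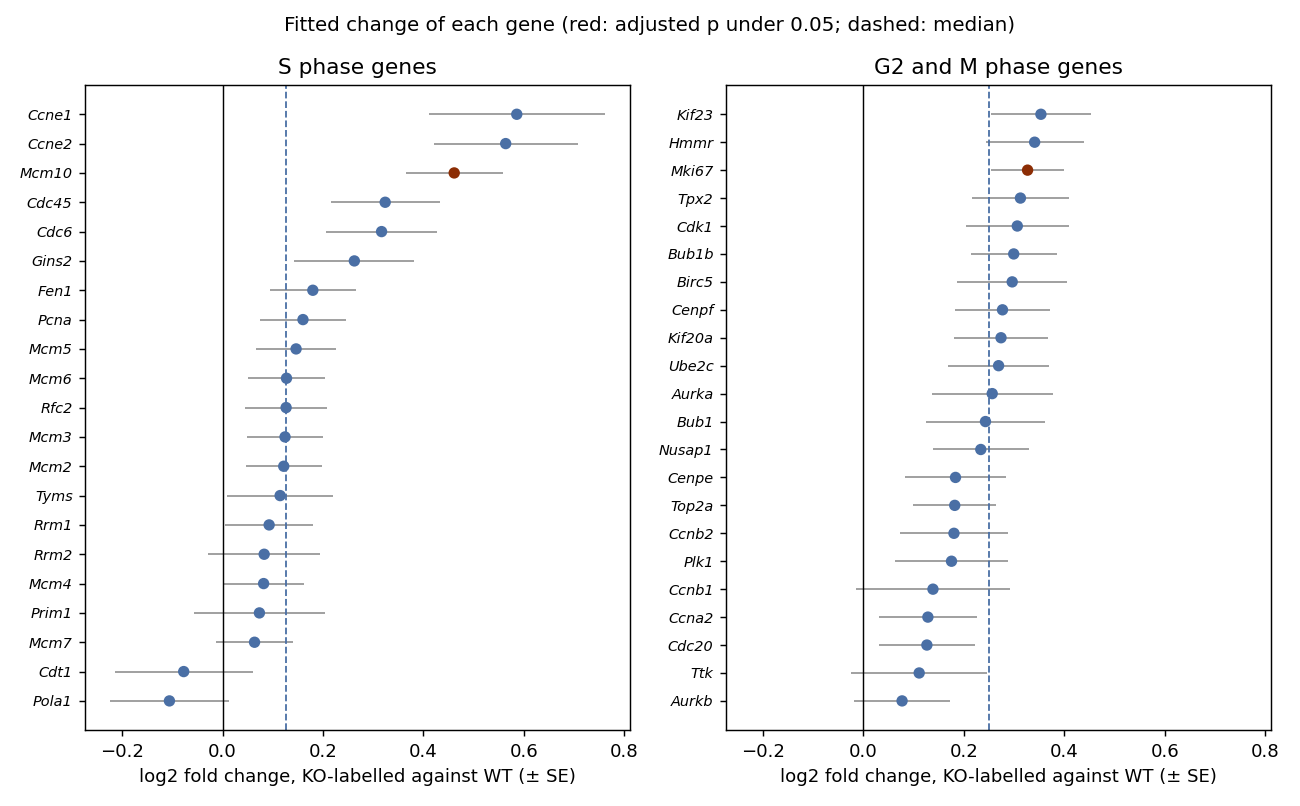
Fitted log2 fold change of each S phase (left) and G2 and M phase gene (right), KO-labelled against WT, with its standard error. Red points, Mcm10 and Mki67, passed at an adjusted p under 0.05, and the dashed lines mark the medians of 0.13 and 0.25.

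Levels are given as CPM, read counts scaled to the size of each library with the TMM composition factor. The 21 S phase genes summed to 5403, 5356 and 5160 CPM in KO libraries 1 to 3 and to 5117 and 4646 CPM in WT libraries 1 and 2. All 3 KO-labelled sums lay above both WT sums, but KO library 3 exceeded WT library 1 by less than the WT libraries differed from each other. The 22 G2 and M phase genes summed to 4786, 4650 and 4595 CPM in KO libraries 1 to 3 and to 4161 and 3737 CPM in WT libraries 1 and 2. Here the lowest KO-labelled sum exceeded the higher WT sum by about as much as the WT libraries differed. The ratio of the G2 and M phase sum to the S phase sum was 0.886, 0.868 and 0.890 for KO libraries 1 to 3, while WT libraries 1 and 2 gave 0.813 and 0.804. The ratios of the groups did not overlap, which describes these 5 libraries and was not tested. The sums were not scaled to transcript length, and Mki67 and Top2a weigh most in that of the G2 and M phase genes. Their means were 1038 and 1083 CPM of 4677 CPM in KO-labelled libraries, and 828 and 955 CPM of 3949 CPM in WT.

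Every KO-labelled library exceeded both WT libraries in 14 of 21 S phase genes (66.7%) and 15 of 22 G2 and M phase genes (68.2%), against 16.5% of all genes. In 0 members did every KO-labelled library lie below both WT libraries, against 16.3% of all genes. WT library 2 was the lowest of the 5 in 16 S phase and 17 G2 and M phase genes. KO library 1 was the highest in 12 and 13 of them. The WT libraries themselves differed in the same genes. WT library 1 stood above WT library 2 in 16 of 21 S phase and 17 of 22 G2 and M phase genes, with median log2 differences of 0.10 and 0.18, against 49.3% of all genes. Without WT library 1 the medians of the KO-labelled against WT changes were 0.23 and 0.30. Without WT library 2 they were 0.076 and 0.19, so that both medians depended on which WT library was used. Leaving out either WT library left 0 members past the threshold, with 6 and 18 genes passing in all. Leaving out KO library 2 or KO library 3 also left 0 members, with 263 and 135 genes passing in all. Without KO library 1, 1 S phase and 5 G2 and M phase genes passed, with 675 genes passing in all against 287 with all 5 libraries.

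**Figure D2:**
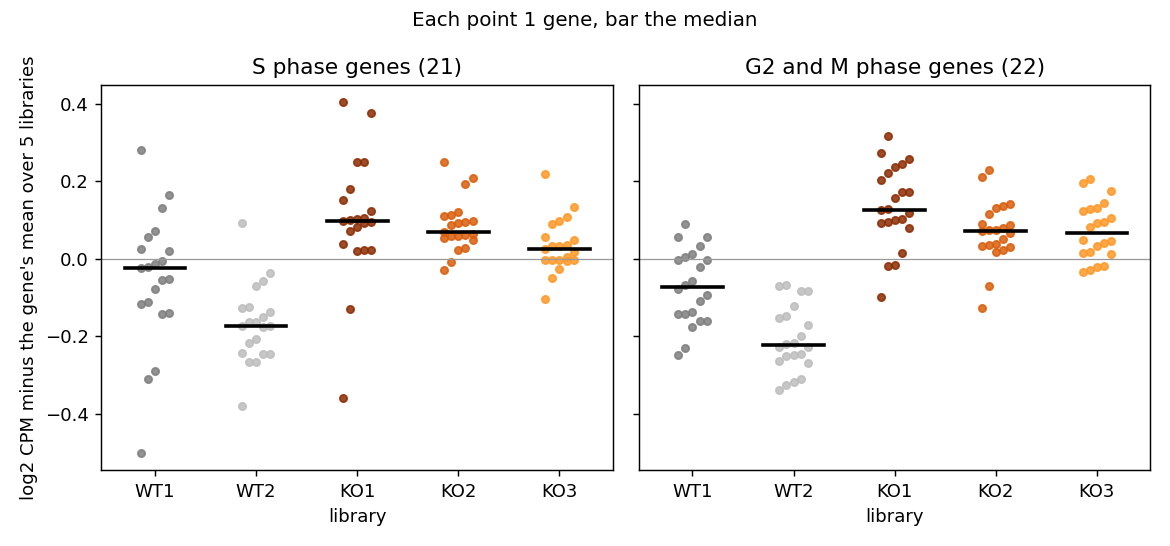
Log2 CPM of each gene minus that gene's mean over the 5 libraries (vertical axis), by library (horizontal axis), for the 21 S phase genes (left) and 22 G2 and M phase genes (right). The bars are medians; those of WT library 2, -0.17 and -0.22, lie lowest and those of KO library 1, 0.10 and 0.13, highest.

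Among the S phase genes only Mcm10 passed, and the E cyclins had larger fitted values with larger errors. Mcm10, which binds the helicase and is needed for origins to fire, stood at 104, 99.6 and 93.9 CPM in KO libraries 1 to 3 and at 70.3 and 73.5 CPM in WT libraries 1 and 2. The groups did not overlap, and the gap of 20.4 CPM between them exceeded the range within either group. Mcm10 rose 1.38-fold, with a log2 fold change of 0.46 ± 0.10 (SE, edgeR adjusted p = 0.0281), from 71.9 ± 2.27 (SD, n = 2) to 99.1 ± 4.88 CPM (SD, n = 3). The call was lost without KO library 2 (edgeR adjusted p = 0.0671), KO library 3 (0.0826), WT library 1 (0.379) or WT library 2 (0.242), while its log2 fold change stayed between 0.43 and 0.51 in all 14 alternative settings.

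The E cyclins, which activate Cdk2 at the start of S phase, had the largest fitted changes of all members but did not pass. Ccne1 stood at 23.5, 19.6 and 21.04 CPM in KO libraries 1 to 3 and at 12.8 and 15.7 CPM in WT libraries 1 and 2. Its log2 fold change was 0.59 ± 0.18 (edgeR adjusted p = 0.133). Ccne2 stood at 42.6, 37.2 and 33.4 CPM against 26.3 and 24.7 CPM, with a log2 fold change of 0.56 ± 0.14 (edgeR adjusted p = 0.0712). Neither gene overlapped between groups, and Ccne2 passed in 3 of 14 alternative settings (DESeq2, limma with sample weights and no count filter). Both are among the least abundant members per transcript length, at 9.25 and 10.9 CPM per kb.

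The loading and activation factors were mixed. Cdc45, which joins the helicase when an origin fires, stood at 75.5, 67.9 and 65.1 CPM in KO libraries 1 to 3 and at 57.5 and 53.6 CPM in WT libraries 1 and 2 (log2 fold change 0.32 ± 0.11, edgeR adjusted p = 0.189). Cdc6, an origin loader, stood at 87.2, 93.3 and 76.9 CPM against 72.6 and 65.3 CPM (0.32 ± 0.11, edgeR adjusted p = 0.208). In both genes all KO-labelled libraries were above both WT libraries. The GINS subunit Gins2 did not overlap either, at 40.1 to 40.8 against 33.2 to 34.1 CPM. Cdt1, the other loader, was lowest in KO library 1, with 58.3 CPM there, 80.8 and 82.1 CPM in KO libraries 2 and 3 and 75.8 and 79.8 CPM in WT libraries 1 and 2. Its fitted log2 fold change was -0.08 ± 0.14, and 0.066 without KO library 1.

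The 6 subunits of the helicase itself moved little and alike. Mcm6 was the most abundant member per transcript length, at 336 CPM per kb, followed by Mcm3 at 204, while Mcm5 (130), Mcm2 (112), Mcm7 (105) and Mcm4 (97.7 CPM per kb) lay lower. Their log2 fold changes ran from 0.06 in Mcm7 to 0.15 in Mcm5, each with an SE of 0.08, and none passed. Mcm6, for example, stood at 1051, 1014 and 975 CPM in KO libraries 1 to 3 and at 974 and 881 CPM in WT libraries 1 and 2. KO library 3 and WT library 1 were nearly equal in that gene. Mcm4 was the 1 subunit whose groups overlapped.

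Genes of DNA synthesis and nucleotide supply mostly overlapped between groups. Rrm1 and Rrm2, the subunits of ribonucleotide reductase, and Tyms, which makes thymidylate, had log2 fold changes of 0.09, 0.08 and 0.11. Rrm2 stood at 140, 128 and 128 CPM in KO libraries 1 to 3 and at 141 and 109 CPM in WT libraries 1 and 2, so its highest and lowest values were both WT. The same held for Pola1, the catalytic subunit of the polymerase that starts each strand, at 190, 204 and 215 CPM against 253 and 185 CPM (log2 fold change -0.11 ± 0.12). The primase subunit Prim1 also overlapped. The clamp Pcna (0.16 ± 0.09), the flap nuclease Fen1 (0.18 ± 0.09) and the clamp loader Rfc2 (0.13 ± 0.08) did not overlap and did not pass. Gins2 and Fen1 share 67.3% and 78.8% of their exon bases with genes on the opposite strand, as annotated on GRCm38. Whether the counting used strand is not given in the sources used here, so both values are uncertain. Of the 43 members, 12 had any such overlap, and Mcm10 and Mki67 had none.

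In the G2 and M phase set the change was more even, with log2 fold changes between 0.08 in Aurkb and 0.35 in Kif23. Mki67, the proliferation antigen that coats mitotic chromosomes, stood at 1029, 1038 and 1048 CPM in KO libraries 1 to 3 and at 859 and 797 CPM in WT libraries 1 and 2. The KO-labelled values lay close together, and a gap of 169.8 CPM separated them from the higher WT value. Mki67 rose 1.25-fold, from 828 ± 44.0 (SD, n = 2) to 1038 ± 9.48 CPM (SD, n = 3), with a log2 fold change of 0.33 ± 0.07 (SE, edgeR adjusted p = 0.0402). The call was lost without KO library 2 (edgeR adjusted p = 0.0916), KO library 3 (0.207), WT library 1 (0.266) or WT library 2 (0.398), and when the transcripts of each gene were summed (0.0710).

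**Figure D3:**
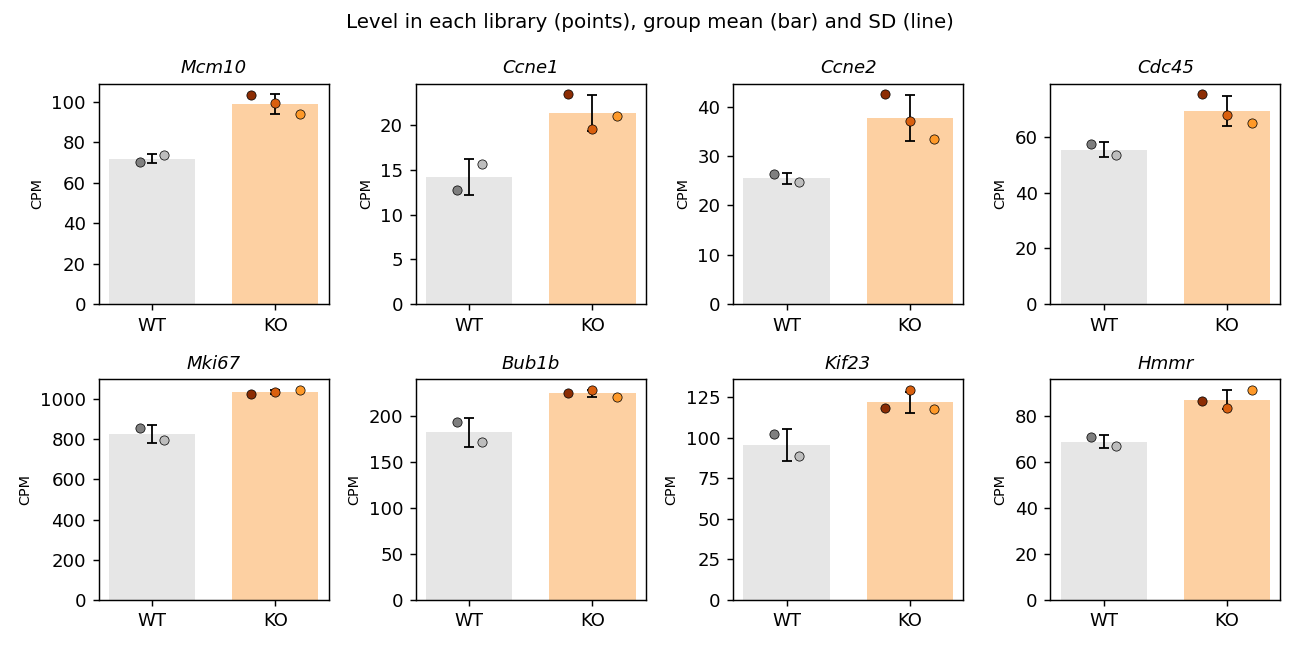
CPM of 4 S phase genes (top) and 4 G2 and M phase genes (bottom) in WT (2 libraries) and KO-labelled (3 libraries) samples; points are libraries, bars group means and lines the SD. The 8 genes belong to the 29 of 43 members in which every KO-labelled library lay above both WT libraries, against 16.5% of all genes. Their separation here is therefore no further result, and only Mcm10 and Mki67 passed the test.

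Of the spindle and cytokinesis genes among the members, none passed. Kif23, a kinesin of the central spindle, stood at 118, 129 and 118 CPM in KO libraries 1 to 3 and at 102 and 88.6 CPM in WT libraries 1 and 2 (0.35 ± 0.10 on the log2 scale, edgeR adjusted p = 0.110). Hmmr, a spindle-associated protein, stood at 86.6, 83.3 and 91.3 CPM against 70.9 and 66.7 CPM (0.34 ± 0.10, edgeR adjusted p = 0.117). Tpx2, which activates Aurora A on the spindle, had a log2 fold change of 0.31 ± 0.10 (edgeR adjusted p = 0.149), the mitotic kinesin Kif20a one of 0.27 ± 0.09 and the spindle protein Nusap1 one of 0.23 ± 0.10. None of these 5 genes overlapped between groups. Kif23, Hmmr and Tpx2 passed in 4, 3 and 1 of the 14 alternative settings. For Kif23 these were DESeq2, limma with sample weights, an offset for length and GC content, and the fit without KO library 1. Those settings called 511, 624, 447 and 675 genes in all, against 287 in the main fit. Hmmr passed in the last 3 of them and Tpx2 with limma.

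Of the kinetochore and checkpoint genes, Bub1b, the checkpoint kinase homologue BubR1, stood at 225, 228 and 220 CPM in KO libraries 1 to 3 and at 194 and 171 CPM in WT libraries 1 and 2 (0.30 ± 0.09, edgeR adjusted p = 0.117). It passed in 4 of the 14 alternative settings, the same 4 as Kif23. Bub1 (0.24 ± 0.12) and the large kinetochore protein Cenpf (0.28 ± 0.09) did not overlap either, whereas the kinetochore motor Cenpe (0.18 ± 0.10) and the checkpoint kinase Ttk (0.11 ± 0.14) did.

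The mitotic kinases and cyclins moved less evenly. Cdk1, the kinase of mitotic entry, stood at 209, 172 and 169 CPM in KO libraries 1 to 3 and at 150 and 146 CPM in WT libraries 1 and 2 (0.31 ± 0.10, edgeR adjusted p = 0.190), with KO library 1 well above the others. Its cyclin partners overlapped between groups. Ccnb1 stood at 31.6, 24.5 and 27.7 CPM against 27.0 and 23.8 CPM, Ccnb2 had a log2 fold change of 0.18 ± 0.11, and Ccna2 one of 0.13 ± 0.10. Aurka (0.26 ± 0.12) and Aurkb (0.08 ± 0.10), the Aurora kinases, overlapped as well, while the Polo kinase Plk1 (0.18 ± 0.11) and the survivin gene Birc5 (0.30 ± 0.11), whose product anchors Aurora B, did not. The genes of mitotic exit, Ube2c (0.27 ± 0.10) and Cdc20 (0.13 ± 0.10), which serve the anaphase-promoting complex, did not overlap and did not pass. Top2a, the topoisomerase that untangles sister chromatids, was the most abundant gene of the set per transcript length, at 198 CPM per kb, and stood at 1097, 1094 and 1059 CPM against 1031 and 878 CPM (0.18 ± 0.08, edgeR adjusted p = 0.353).

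Other genes of the same processes, in 9 lists chosen by function, gave few calls. The lists were chosen with earlier results of these data known, so their shares and medians are descriptions and no independent support. Of 22 genes of origin licensing and firing, 24 of the replication fork and chromatin assembly and 12 of nucleotide supply, 0 passed in either direction, with medians of 0.09, 0.10 and 0.07. The lowest p in these lists belonged to Mcm8, a helicase homologue (0.44 ± 0.13, edgeR adjusted p = 0.138), the polymerase subunit Pold3 (0.27 ± 0.09, edgeR adjusted p = 0.155) and Umps, of pyrimidine synthesis (0.21 ± 0.09, edgeR adjusted p = 0.290). Every KO-labelled library exceeded both WT libraries in 6 (27.3%), 10 (41.7%) and 5 (41.7%) of their genes, against 16.5% of all genes.

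Of 21 spindle and cytokinesis genes, 23 kinetochore and checkpoint genes and 16 genes of mitotic entry and exit, 0 passed as well, with medians of 0.18, 0.16 and 0.13. Every KO-labelled library exceeded both WT libraries in 11 (52.4%), 10 (43.5%) and 6 (37.5%) of them. Prc1, another gene of the central spindle, came nearest at 0.42 ± 0.11 (edgeR adjusted p = 0.0701). In the list of 14 condensin and cohesin genes 1 rose. Ncapd2, a condensin I subunit that compacts mitotic chromosomes, stood at 480, 520 and 486 CPM in KO libraries 1 to 3 and at 316 and 282 CPM in WT libraries 1 and 2. It rose 1.66-fold (0.73 ± 0.08 on the log2 scale, edgeR adjusted p = 0.00104), a larger fitted value than that of any of the 43 members, and lost its call without either WT library. The list median was 0.08, and every KO-labelled library exceeded both WT libraries in 5 of its genes (35.7%).

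Of 24 E2F, RB and MYB-MuvB regulators, 0 passed and the median was 0.07. Every KO-labelled library exceeded both WT libraries in 5 of them (20.8%) and lay below both in 3, against 16.5% and 16.3% of all genes. Of 11 G1 cyclins, CDKs and CDK inhibitors, 2 rose, where 0.79% of all genes rose. These were the D cyclins Ccnd1 and Ccnd2, 1.76-fold and 1.52-fold (edgeR adjusted p = 0.00417 and 0.00305), although the list median was -0.001. Every KO-labelled library exceeded both WT libraries in 2 of the 11 (18.2%) and lay below both in 3. At an unadjusted p under 0.05, 2 were higher and 2 lower, against 6.76% and 7.02% of all genes. Ccnd1 lost its call without WT library 1, and Ccnd2 without either WT library.

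**Figure D4:**
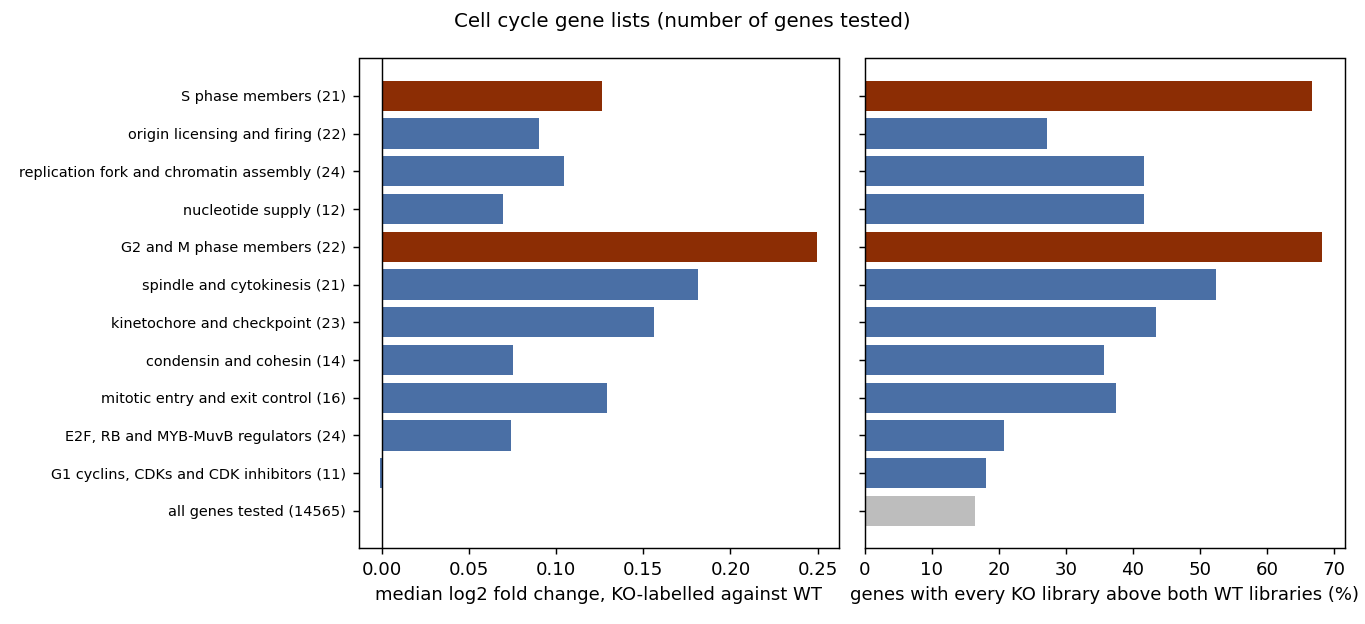
Median log2 fold change (left) and share of genes in which every KO-labelled library exceeded both WT libraries (right) for the 2 gene sets (red), 9 related lists (blue) and all genes tested (grey), with the number of genes tested. The G2 and M phase set has the highest median, 0.25, and all genes tested lie at 0.001 and 16.5%.

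Some markers of other cell types also differed between the groups, but not in the same order of libraries. The median centred log2 CPM of the erythroid markers was lowest in WT library 1 (-0.65, and -0.38 in WT library 2). Those of the S phase and the G2 and M phase genes were lowest in WT library 2 (-0.17 and -0.22). The LSK markers Kit (1119 ± 29.6 against 1216 ± 15.5 CPM) and Ly6a, which encodes Sca1 (97.4 ± 7.04 against 78.4 ± 5.03 CPM), were expressed in all libraries and did not pass. Of 10 LSK markers 0 passed in either direction. Every KO-labelled library was above both WT libraries in 2 (Ly6a and Hlf) and below both in 2 (Kit and Slamf1), against 16.5% and 16.3% of all genes. The other 6 overlapped between groups. The 12 erythroid markers summed to 438 to 539 CPM in KO-labelled and 303 to 323 CPM in WT libraries. Of these 12, 5 rose and 0 fell, where 0.79% of all genes rose and 1.18% fell. Klf1, an erythroid transcription factor, was among the 5, at 14.4 ± 2.17 (SD, n = 3) against 5.06 ± 2.25 CPM (SD, n = 2). The fitted change was above 0 in 10 of the 12, while Epor and Tfrc had log2 fold changes of -0.15 and -0.07. Gata1 had one of 0.59 and did not pass (edgeR adjusted p = 0.154). Without WT library 1 all 5 erythroid calls were lost, and without WT library 2 all but that of Ermap. The Klf1 call was also lost without KO library 3. The Car1 call was also lost with limma and with no count filter. Slc4a1 passed narrowly (edgeR adjusted p = 0.0499), at 0.64 to 5.71 CPM, and passed in 5 of the 14 alternative settings. The 11 neutrophil and monocyte markers measured summed to 3027 to 3762 CPM in KO-labelled and 4436 to 4747 CPM in WT libraries. Mpo made up most of these sums and did not pass (edgeR adjusted p = 0.0747). Of the 11, 4 fell (Prtn3, Ctsg, S100a8 and S100a9) and 0 rose. These 4 calls, those of the megakaryocyte markers and that of Klrb1c were likewise lost without either WT library. Of 8 megakaryocyte markers 2 fell, and they summed to 350 to 560 CPM in KO-labelled and 619 to 712 CPM in WT libraries, mostly Vwf and Itga2b. The platelet chemokine genes Pf4 and Ppbp had fitted folds of 1.73 and 2.74 in the other direction, with every KO-labelled library above both WT libraries, and did not pass. The B cell markers summed to 44.5 to 58.2 CPM, mostly Cd79b, with Cd79a at 2.10 to 4.34 CPM. The T and NK cell markers summed to 25.9 to 36.2 CPM in KO-labelled and 52.7 to 54.4 CPM in WT libraries, mostly Klrb1c, the 1 marker of the 8 that fell, with Cd3e at 0.691 to 3.24 CPM and Ncr1 at 0 to 1.37 CPM. The part of these cell types in the levels of the replication and mitosis genes was not tested.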

How the data were processed

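Read counts per RefSeq transcript, as the authors deposited them, covered 33862 transcripts in 5 libraries. The submitters' processing notes name STAR, featureCounts, Subread 1.4.5-p1 and build mm9 (NCBIM37). The strand setting is not given, nor the treatment of shared reads. Per the labels, libraries were stranded mRNA preparations. Symbols came from the RefSeq table of GRCm38 (33485 transcripts) or GENCODE (188), and 189 unnamed transcripts, 0.362% to 0.459% of counts, stayed in as separate features. The transcript with the most counts was kept per gene, which gave 29964556 to 39691066 counts per library. Across genes on log2 CPM (prior count 2) libraries correlated at 0.9525 to 0.9802. WT library 1 and KO library 1 had the lowest value with each other. The values did not follow the labels throughout. WT library 2 correlated at 0.9733 with KO library 2 and 0.9708 with KO library 3, but at 0.9694 with WT library 1.

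Groups came from the titles. After filterByExpr and TMM scaling, KO-labelled libraries were compared with WT by the two-sided quasi-likelihood test of edgeR 4.0.16 under R 4.3.3, with robust dispersions and p-values adjusted over all 14565 genes. The script was tested on simulated data. Alternatives were RLE size factors, DESeq2 1.42.0, limma 3.58.1 with sample weights, no filter, summed transcripts, a replicate block, an offset for transcript length and GC content, an unadjusted p and each library left out. Upper quartile scaling and library totals only were added after the data were seen. Lengths for CPM per kb came from the GENCODE transcript paired with each accession. Any of the 43 members could be named; in each related list the genes past the threshold (at most 4, smallest p first) or else those with the smallest p were named, and in the marker lists some of the defining markers. Cd79b, Klrb1c, the other markers outside the defining ones, and the sums were described after their values were seen. The members and lists were chosen with earlier results of these data known. The targeted gene is given by its counts only.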

Additional observations from a re-analysis of the deposited data

How the results depend on the processing

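The direction of both medians held in all 14 alternative settings, while the calls did not. The counts of genes higher and lower over all genes were 115 and 172. DESeq2 gave 235 and 276, weighted limma 247 and 377, an unadjusted p under 0.05 gave 984 and 1023, and the replicate block, with the number in the title as a term, 54 and 106. Higher genes numbered 200 with no count filter and 254 with the offset for length and GC content. With 1 library left out the counts ranged from 2 to 312 higher and from 4 to 363 lower. S phase genes called higher numbered 2 with DESeq2, limma or no filter, 0 with the replicate block, 6 at an unadjusted p under 0.05 and 0 to 1 with 1 library left out. G2 and M phase genes numbered 3 with DESeq2, 6 with limma, 5 with the offset, 0 with summed transcripts or the replicate block, 12 at an unadjusted p under 0.05 and 0 to 5 with 1 library left out. With the block, the adjusted p was 0.0648 for Mcm10 and 0.175 for Mki67; the labels do not say that equal numbers mark a shared batch, and the deviations of same-numbered libraries correlated at 0.043 and 0.017. The S phase median was 0.16 with the offset, but the median of all genes also moved there, from 0.001 to 0.042. With 1 library left out the S phase median was 0.076 to 0.23, and that of the G2 and M phase genes 0.19 to 0.30. The difference between the medians was 0.12, and 0.10 with limma and 0.076 to 0.12 with 1 library left out. With 1 library left out the fitted value changed sign, without passing, for 9 members: Rrm1 (-0.016 to 0.22), Rrm2 (-0.092 to 0.29), Tyms (-0.022 to 0.27), Prim1 (-0.13 to 0.31), Ccna2 (-0.0018 to 0.28), Aurkb (-0.024 to 0.19), Ttk (-0.039 to 0.28), Pola1 (-0.31 to 0.14) and Cdt1 (-0.16 to 0.066). Cdt1 also did so with limma (0.0070). Without WT library 2 the first 7 were negative, and without WT library 1 Pola1 was positive. The cause was not tested. A fit without 1 WT library assumes that the lone WT sample varies like the others.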

Other observations

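The same promoter letters were counted in genes outside the 2 sets. Among 11223 tested genes outside the 43 with a promoter window, 760 held both a CHR form and a CCAAT box. Their median log2 fold change was 0.006, against 0.004 in the 10463 genes without the pair, and every KO-labelled library exceeded both WT libraries in 19.6% and 16.6% of them. Genes with E2F letters (1516) had a median of 0.01. Among the members, the 18 genes with a CHR form had a median of 0.25 and the 17 without one a median of 0.14, but 14 of those 18 are G2 and M phase genes. These are descriptions, without a test.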
